A study of Mus musculus with 18 samples.

Results

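The genes described here form the route from calcium to gene expression through the phosphatase calcineurin. They are Rcan1, the calcineurin subunit genes Ppp3ca and Ppp3cb, the NFAT genes Nfatc1, Nfatc2, Nfatc3 and Nfatc4, and the MEF2 genes Mef2a, Mef2c and Mef2d. They were chosen by name and are 10 of the 55450 genes in the count table. All 10 passed the filter on low counts, with at least 163 read pairs in any library. RNA was sequenced from the left ventricle of male FVB/N mice that were wild type (WT) or overexpressed Gαq, the G protein alpha subunit encoded by Gnaq, specifically in the heart. Both genotypes ate control diet (CD) or the same chow carrying ertugliflozin (ERTU), an inhibitor of the glucose and sodium transporter SGLT2, at 0.5 mg per g. Feeding began at 4 weeks of age and lasted 16 weeks, to an age of 20 weeks. Sequencing gave 4 WT CD libraries, 5 Gαq CD libraries, 5 WT ERTU libraries and 4 Gαq ERTU libraries. The WT mice were littermates without the transgene, and the sources used here do not name the promoter that drives it.

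Calcineurin is a phosphatase that calcium and calmodulin switch on. It strips phosphate from NFAT proteins, which then enter the nucleus, and it also acts on MEF2, a family of DNA-binding factors that keep muscle genes active. In heart muscle this route is known for its part in growth under load, and Gαq couples receptors for angiotensin, endothelin and noradrenaline to calcium release. Rcan1 binds calcineurin and restrains it, and the shorter of its transcripts is a classic target of NFAT. Because calcineurin and NFAT are regulated mainly by phosphorylation and by where the proteins lie in the cell, transcript levels of the subunits and factors say nothing of their activity.

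The DNA upstream of the genes that were higher in Gαq hearts is shown first, because NFAT binds a short core that can be read by eye. The windows cover 250 bases before a RefSeq transcription start on GRCm38.p6, written 5′ to 3′ on the strand of the gene, with every GGAAA or TTTCC (the NFAT core on either strand) in capitals. Rcan1 has an inner start at chr16:92400079-92400328 on the minus strand, which serves the short transcript, and a start farther upstream at chr16:92466170-92466419. The Nfatc4 window lies at chr14:55824545-55824794 on the plus strand.
Rcan1 inner start: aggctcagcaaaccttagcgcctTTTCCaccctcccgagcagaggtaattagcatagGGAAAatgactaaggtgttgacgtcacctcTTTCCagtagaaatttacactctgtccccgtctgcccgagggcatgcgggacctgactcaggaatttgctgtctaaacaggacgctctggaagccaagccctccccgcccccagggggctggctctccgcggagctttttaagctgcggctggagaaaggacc
Rcan1 upstream start: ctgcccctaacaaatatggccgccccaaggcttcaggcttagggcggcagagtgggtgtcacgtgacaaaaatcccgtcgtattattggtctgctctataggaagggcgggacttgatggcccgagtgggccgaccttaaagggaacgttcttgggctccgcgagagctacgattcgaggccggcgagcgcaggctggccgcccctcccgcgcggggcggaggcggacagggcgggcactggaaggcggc
Nfatc4: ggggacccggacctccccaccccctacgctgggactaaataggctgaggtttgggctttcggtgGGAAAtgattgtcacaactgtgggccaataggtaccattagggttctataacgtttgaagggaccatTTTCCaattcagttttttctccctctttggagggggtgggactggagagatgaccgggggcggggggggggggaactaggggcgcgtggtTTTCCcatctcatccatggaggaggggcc
The inner Rcan1 window holds 3 cores, the upstream window holds 0, and the Nfatc4 window holds 3. Of 32817 windows of this length, 55.6% held at least 1 core and 6.4% held at least 3. Windows were found for 8 of the 10 genes, 13 in all, and none matched the MEF2 motif, which 2.92% of all windows did. Mef2c had a window with 5 cores, a number reached or passed in 0.4% of all windows. The only Ppp3cb window and 1 of the Nfatc2 windows had 3. None of these genes was called higher in Gαq hearts. These counts describe letters and not sites in use. The gene-level counts below add the Rcan1 transcripts together.

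The libraries held 15383566 to 20908363 counts. Gnaq, which sums endogenous and transgene reads, ranged from 45.5 to 229.7 CPM (counts scaled to the library total, with TMM factors) in the 9 WT libraries and from 1641 to 11670 CPM in the 9 Gαq libraries, so every library matched its genotype label. Gnaq does not check the diet label. Among the WT libraries, whose mice lack the transgene, the SD of Gnaq was 59.8% of the mean on CD and 67.5% on ERTU. The source of this spread was not tested. Gαq CD 10 had the least Gnaq of the Gαq libraries. Cardiomyocyte markers were abundant in all libraries, with summed levels of 41180 to 59560 CPM over 10 genes. Atrial markers summed to 5.56 CPM at the lowest and 906.6 CPM at the highest, and they peaked in WT CD 5, Gαq CD 8, WT ERTU 14 and Gαq ERTU 20 among the libraries of their own group. Leaving out these 4 libraries together is an alternative given in the closing section. In bulk tissue, fewer cells of a type and less RNA per cell cannot be told apart.

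By genotype 3 of the 10 genes were called, and by diet 0. Rcan1 was 2.25-fold higher in Gαq hearts and Nfatc4 was 1.29-fold higher, while Ppp3cb was 0.88-fold. The Ppp3cb call was kept in only 8 of 25 alternative fits. Over all 16270 genes tested, 19.6% passed the same threshold by genotype (adjusted p under 0.05, edgeR quasi-likelihood test, Benjamini-Hochberg), 9.72% as higher and 9.92% as lower. The absolute log2 fold change had a median of 0.18 over the 10 genes and 0.16 over all genes. Over the alternative fits 2 to 4 of the 10 were called by genotype. Of the 10 genes, 6 had an unadjusted p under 0.05, as did 5184 of the 16270 genes tested.

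**Figure D1:**
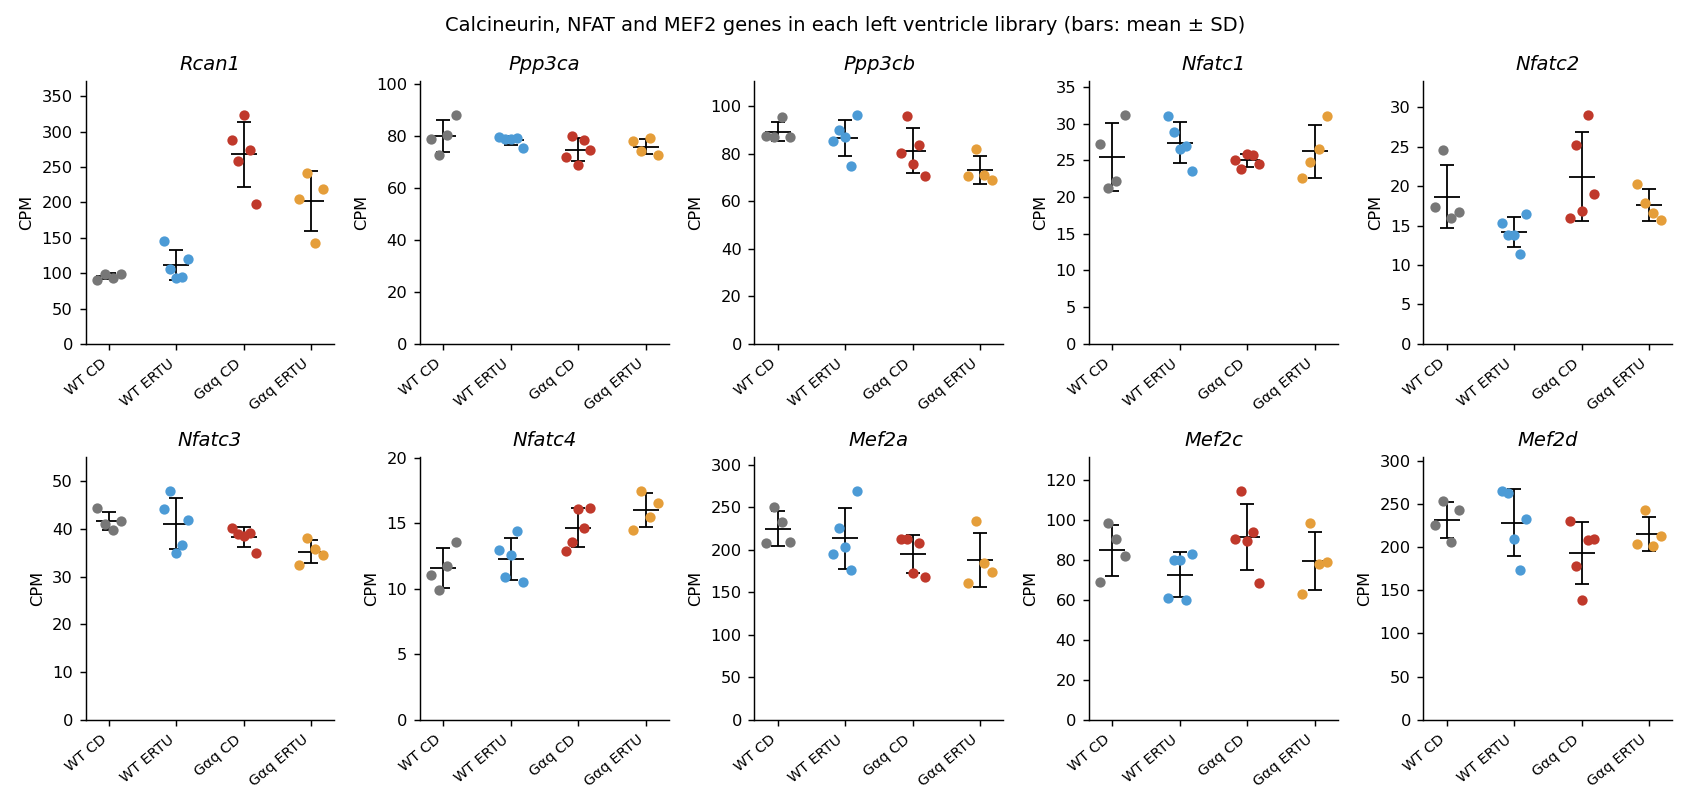
Level of each gene in CPM, on axes that start at 0, with 1 point per library and bars for the mean ± SD of each group. Rcan1 separates the genotypes on CD, where all 5 Gαq libraries sit between 197.9 and 323.2 CPM above WT libraries at 90.8 to 99.4 CPM. In each of the other panels the WT CD and Gαq CD libraries overlap. The share of all genes without overlap was not computed.

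Rcan1, the inhibitor and feedback target of calcineurin, gave the clearest difference. In WT CD it measured 90.8, 99.4, 93.6 and 99.1 CPM. In Gαq CD it measured 288.6, 258.4, 323.2, 273.5 and 197.9 CPM. The groups did not overlap, and the lowest Gαq CD value, in library 10, was also that of the library with the least Gnaq. In WT ERTU it measured 144.8, 106.1, 93.4, 94.97 and 120.7 CPM. In Gαq ERTU it measured 205.5, 241.5, 142.4 and 219.2 CPM. On ERTU the genotypes met at the edge, since the lowest Gαq ERTU library was just under the highest WT ERTU library. The genotype difference on the log2 scale was 1.17 ± 0.13 (SE, adjusted p = 1.83e-06). It was 1.49 ± 0.16 on CD (adjusted p = 7.24e-06) and 0.85 ± 0.15 on ERTU (adjusted p = 0.0014). On CD, 8.10% of all genes were called, 4.00% as higher. On ERTU, 8.17% were called, 3.93% as higher.

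The diet contrasts for Rcan1 had opposite signs in the genotypes, and none passed the test. ERTU against CD was −0.41 ± 0.16 on the log2 scale in Gαq hearts (95% interval −0.73 to −0.08, unadjusted p = 0.0164, adjusted p = 0.653). In WT hearts it was 0.23 ± 0.16 (95% interval −0.10 to 0.55, adjusted p = 0.9999). The interaction, which tests the difference between these contrasts, was −0.63 ± 0.22 (unadjusted p = 0.00935, adjusted p = 0.9997). Gnaq moved in the same direction in the Gαq groups. It read 6304, 9701, 8045, 11670 and 1641 CPM in Gαq CD and 2392, 5207, 2236 and 3031 CPM in Gαq ERTU, a log2 difference of −1.22 ± 0.52 (unadjusted p = 0.0294, adjusted p = 0.653). The part of the transgene level in the Rcan1 difference was not tested.

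Over the 9 Gαq libraries Rcan1 followed Gnaq, with Pearson r = 0.80 (exact permutation p = 0.0072, adjusted p = 0.0203 over 10 relations) and Spearman rho = 0.85 (exact permutation p = 0.00607, adjusted p = 0.0535). Without the 2 libraries farthest from the median of Gnaq, Gαq CD 10 and Gαq ERTU 18, r was 0.79 over 7. Within diets r was 0.71 (exact permutation p = 0.0375, adjusted p = 0.0938). Mef2c (r = 0.85, rho = 0.80), Nfatc3 (r = 0.84, rho = 0.77) and Ppp3cb (r = 0.82, rho = 0.77) gave relations of like size, each with adjusted permutation p = 0.0203 for r and 0.0535 for rho. Without the same 2 libraries their r was 0.82, 0.88 and 0.79, and within diets it was 0.82, 0.76 and 0.75. Nfatc3 and Ppp3cb rose with Gnaq among the Gαq libraries, but their genotype differences had the opposite sign. In Gαq against WT hearts these were −0.17 ± 0.06 (not called) and −0.19 ± 0.07 on the log2 scale. The other 6 relations had adjusted permutation p of 0.141 or above for r. Within diets none of the 10 relations passed after adjustment, the smallest adjusted permutation p being 0.0938. These relations were computed after the values had been seen, and the share of all genes with such an r to Gnaq was not computed. They are not separate from each other, since Ppp3cb and Mef2c also went together within groups (r = 0.79 over 18 libraries).

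**Figure D2:**
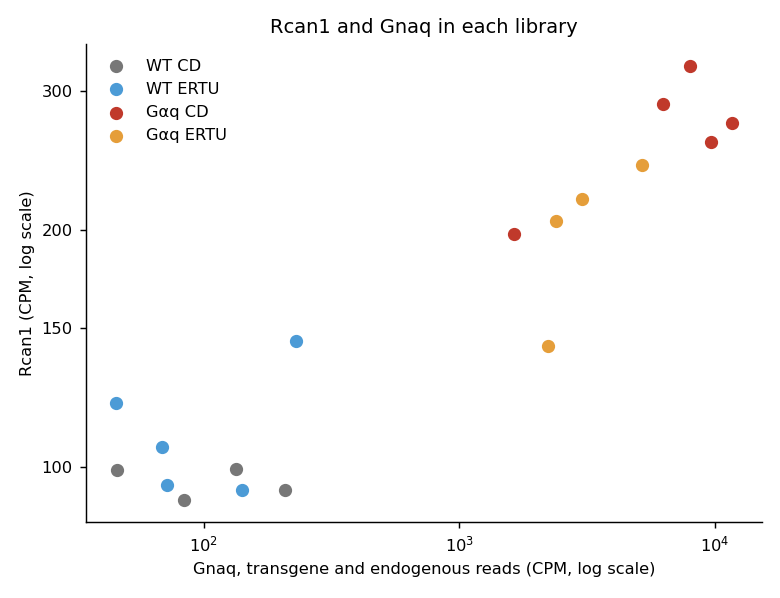
Rcan1 against Gnaq, both in CPM on log axes, with 1 point per library coloured by group. The 9 WT libraries lie below 230 CPM of Gnaq, and among the Gαq libraries the 4 with the most Gnaq, all on CD, also have the 4 highest Rcan1 levels, 258.4 CPM and above.

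Across all 18 libraries and 13097 genes compared, the genes whose log2 CPM was most like that of Rcan1 were Nppb (r = 0.94), which encodes the B-type natriuretic peptide, Gnaq (r = 0.94) and B3galt1 (r = 0.93). These correlations share the genotype contrast, and within groups they were 0.67, 0.50 and 0.62.

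The catalytic subunits of calcineurin changed little. Ppp3ca, which encodes the alpha isoform, measured 78.8, 72.7, 80.5 and 87.95 CPM in WT CD and 79.6, 78.8, 79.0, 79.2 and 75.3 CPM in WT ERTU. In the Gαq libraries it lay between 69.0 and 79.99 CPM on CD and between 72.8 and 79.0 CPM on ERTU. The groups overlapped throughout. Its genotype difference was −0.07 ± 0.05 on the log2 scale with an interval of −0.18 to 0.03 (adjusted p = 0.358), so these data bound the change at between 11.5% lower and 2.35% higher. For diet the interval was −0.11 to 0.10.

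Ppp3cb, which encodes the beta isoform, measured 87.3, 86.9, 95.2 and 87.1 CPM in WT CD and 80.3, 95.9, 75.8, 83.7 and 70.5 CPM in Gαq CD. On ERTU it measured 85.2, 89.7, 87.0, 74.9 and 96.1 CPM in WT and 70.4, 82.1, 70.95 and 68.8 CPM in Gαq. The genotypes overlapped on both diets. The genotype difference was −0.19 ± 0.07 on the log2 scale, with an adjusted p of 0.0476 that sits at the threshold. The call was lost in 14 of the 18 fits that each left out 1 library, where the adjusted p ran from 0.0135 to 0.0978. It was kept without WT CD 5, Gαq CD 7, WT ERTU 14 or Gαq ERTU 17. The genes most like Ppp3cb over 18 libraries were Dyrk2, a kinase (r = 0.91), Cul5 (r = 0.91) and Tmem65 (r = 0.91), with values of 0.86, 0.86 and 0.83 within groups.

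Among the NFAT genes, Nfatc4 was higher in Gαq hearts and the others did not pass the test. Nfatc4 measured 11.1, 9.91, 11.8 and 13.6 CPM in WT CD. It measured 12.9, 13.6, 16.1, 14.6 and 16.2 CPM in Gαq CD, so the groups overlapped on this diet. On ERTU it measured 12.95, 10.9, 12.6, 14.4 and 10.5 CPM in WT. In Gαq ERTU it measured 14.5, 17.5, 15.5 and 16.5 CPM, all above the WT ERTU libraries, though by a narrow margin. The genotype difference was 0.36 ± 0.08 on the log2 scale (adjusted p = 0.00254) and stayed past the threshold in each of the 25 alternative fits. On CD alone it was 0.34 ± 0.12 (adjusted p = 0.0825), and without WT CD 5 the adjusted p was 0.0386. On ERTU alone it was 0.38 ± 0.12 (adjusted p = 0.0454), and that call was lost in 11 of the 18 fits without 1 library, with adjusted p up to 0.116. It was kept without WT CD 2, WT CD 5, Gαq CD 6, Gαq CD 8, Gαq CD 10, WT ERTU 14 or Gαq ERTU 16.

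Fibroblast markers moved with Nfatc4 by genotype. Of 8 markers, 5 were higher by genotype and 0 lower, where 9.72% of all genes were higher. Dcn was the most abundant, at a mean of 1276 CPM over the 18 libraries. The summed level of the 8 on CD was 1416 to 2536 CPM in WT against 2327 to 3712 CPM in Gαq. On ERTU it was 1399 to 2701 CPM in WT against 2574 to 3030 CPM in Gαq. No fibroblast marker was at 0. Within each WT group the library with the most fibroblast signal, WT CD 5 and WT ERTU 14, also had the most Nfatc4. In the Gαq groups this was not so. Nfatc4 was highest in Gαq CD 10 and Gαq ERTU 17, while the fibroblast sum was highest in Gαq CD 8 and Gαq ERTU 20, and Gαq ERTU 17 had the lowest sum of its group. In every group the library highest in fibroblast markers was also the one highest in atrial markers. WT CD 5 and WT ERTU 14 had the lowest cardiomyocyte sums of their groups, 41180 and 44400 CPM. The part of fibroblast RNA in the Nfatc4 difference was not tested. The genes most like Nfatc4 over the 18 libraries were Arl8a (r = 0.91), Procr (r = 0.90), which encodes the protein C receptor, and Tmem158 (r = 0.90), with 0.75, 0.87 and 0.85 within groups.

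Nfatc3 measured 44.4, 41.1, 39.8 and 41.6 CPM in WT CD and 40.1, 38.9, 38.5, 39.2 and 34.9 CPM in Gαq CD, with a slight overlap. On ERTU it lay between 34.95 and 47.9 CPM in WT and between 32.4 and 38.1 CPM in Gαq. Its genotype difference was −0.17 ± 0.06 on the log2 scale (adjusted p = 0.0632). This passed in 2 of the fits without 1 library, those without WT ERTU 13 or WT ERTU 14, with adjusted p from 0.0351 to 0.119 over all 18. Nfatc3 shares 219 exonic bases with Esrp2 on the opposite strand, to which 192 read pairs were assigned in all. Whether counting by strand kept the reads of these bases apart was not tested.

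Nfatc2, at the lowest level per length of the set, measured 17.4, 24.6, 15.98 and 16.8 CPM in WT CD and 15.98, 25.2, 16.9, 28.97 and 19.0 CPM in Gαq CD. On ERTU it measured 15.4, 13.8, 13.8, 11.4 and 16.4 CPM in WT and 20.3, 17.9, 16.6 and 15.7 CPM in Gαq. Levels on ERTU were mostly under those on CD but overlapped with them in each genotype. It was the only gene of the set with an unadjusted p under 0.05 by diet, at −0.33 ± 0.12 on the log2 scale (unadjusted p = 0.0103, adjusted p = 0.639). In WT hearts the diet difference was −0.40 ± 0.17 (unadjusted p = 0.0298) and in Gαq hearts −0.27 ± 0.17 (unadjusted p = 0.131). The genotype difference was 0.25 ± 0.12 (adjusted p = 0.152). Nfatc2 is also a factor of T cells, so lymphocyte markers were read beside it. These were scarce, Cd4 being the highest at a mean of 1.71 CPM over the 18 libraries. Their summed level over 10 genes on CD was 3.39 to 5.96 CPM in WT against 7.01 to 10.7 CPM in Gαq. On ERTU it was 2.70 to 4.52 CPM in WT against 4.49 to 8.04 CPM in Gαq, and 2 of the 6 tested were higher by genotype and 0 called by diet. Cd3d, Cd3e, Cd8a and Ms4a1 were not tested because of low counts. In no group did the library with the most Nfatc2 also have the highest lymphocyte sum. On CD these were WT CD 2 against WT CD 4, and Gαq CD 9 against Gαq CD 7. On ERTU they were WT ERTU 15 against WT ERTU 12, and Gαq ERTU 16 against Gαq ERTU 20. The part of lymphocyte RNA in the Nfatc2 values was not tested.

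Nfatc1, known from the heart valves and the endocardium, lay between 21.3 and 31.1 CPM in the 18 libraries, with group means of 25.5 ± 4.6 (SD, n = 4) in WT CD, 27.4 ± 2.8 (n = 5) in WT ERTU, 25.0 ± 0.86 (n = 5) in Gαq CD and 26.2 ± 3.62 (n = 4) in Gαq ERTU. Its genotype interval on the log2 scale was −0.21 to 0.12 and its diet interval −0.08 to 0.25.

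The MEF2 genes did not pass the test one by one, but the balance between a pair of them did. Mef2a, abundant in adult heart muscle, measured 207.4, 250.2, 233.0 and 209.0 CPM in WT CD and 212.1, 213.0, 172.1, 207.4 and 168.0 CPM in Gαq CD. Mef2c measured 68.6, 98.3, 90.5 and 81.6 CPM in WT CD and 90.3, 114.3, 89.5, 93.8 and 68.3 CPM in Gαq CD. Both genes overlapped between genotypes, Mef2a tending lower and Mef2c higher. The genotype differences on the log2 scale were −0.20 ± 0.09 for Mef2a (adjusted p = 0.129) and 0.12 ± 0.10 for Mef2c (adjusted p = 0.475). Mef2a passed in 1 fit, without Gαq ERTU 17, at an adjusted p of 0.0421.

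A ratio within a library does not depend on how libraries were scaled, and the counts of Mef2a against Mef2c separated the genotypes on CD. The ratio was 3.02, 2.54, 2.57 and 2.56 in WT CD. In Gαq CD it was 2.35, 1.86, 1.92, 2.21 and 2.46, all below WT CD. In WT ERTU it was 3.19, 2.83, 2.54, 2.95 and 3.25, and in Gαq ERTU 2.55, 2.37, 2.37 and 2.20, where only the lowest WT library lay within the Gαq range. The log2 ratio was lower in Gαq hearts by the same amount on both diets, −0.31 on CD and −0.31 on ERTU. A 2-sided exact permutation of genotype within diet gave p = 0.000378 (adjusted p = 0.00302 over 8 ratio tests, smallest possible p = 0.000126). By diet the log2 ratio differed by 0.14 (exact permutation p = 0.0452, adjusted p = 0.14). Mef2a shares 302 exonic bases with Lysmd4 on the opposite strand, which held 5305 read pairs in all against 66418 for Mef2a.

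Mef2d measured 226.0, 253.7, 205.7 and 243.4 CPM in WT CD and 230.3, 178.7, 138.9, 208.9 and 210.3 CPM in Gαq CD, with Gαq CD 8 the lowest of all libraries. On ERTU it lay between 173.3 and 265.5 CPM in WT and between 201.5 and 243.5 CPM in Gαq. Its genotype difference was −0.18 ± 0.10 on the log2 scale (adjusted p = 0.226). The other ratios, of Ppp3ca to Ppp3cb, Mef2a to Mef2d and Mef2c to Mef2d, gave 6 tests with adjusted permutation p from 0.14 to 0.838. The log2 ratio of Mef2c to Mef2d was 0.29 higher in Gαq hearts (exact permutation p = 0.0644), and in Gαq CD it varied from a count ratio of 0.33 to 0.64.

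**Figure D3:**
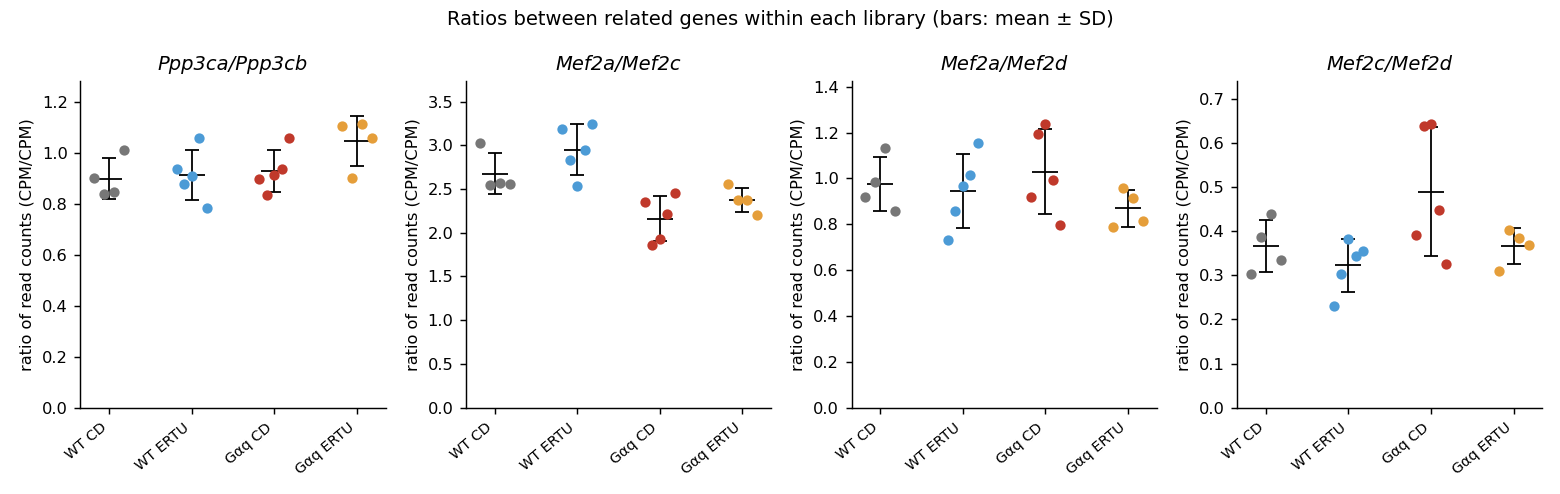
Ratio of CPM between related genes in each library, on axes that start at 0, with bars for the mean ± SD of each group. The Mef2a to Mef2c ratio is 2.54 or more in all 9 WT libraries and 2.55 or less in all 9 Gαq libraries, with an overlap at 2.54 to 2.55, and the other 3 ratios overlap more widely.

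Levels between genes were compared as CPM per kilobase of exon, averaged over the 18 libraries. The exons of all annotated transcripts of a gene were merged for this, whichever are used in the heart. The order therefore depends on annotated length. Mef2d and Mef2a, close in CPM (232.2 and 224.9 on average in WT CD), have merged lengths of 5.985 and 14.681 kb. Rcan1 led at 55.7, followed by Mef2d at 36.2, Mef2a at 13.97, Ppp3cb at 9.38 and Ppp3ca at 7.73. Mef2c came next at 5.22, then Nfatc1 at 3.49, Nfatc3 at 3.34, Nfatc4 at 2.34 and Nfatc2 at 1.69. The top of this order depended on the group. Rcan1 exceeded Mef2d in 12 of 18 libraries, and in WT CD the means were 31.0 for Rcan1 and 38.8 for Mef2d, against 86.98 and 32.3 in Gαq CD. Nfatc1 and Nfatc3 did not differ beyond their spread, with Nfatc1 higher in 11 of 18. Each other neighbour in the order was above the next in at least 15 libraries.

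Diet called 0 of the 10 genes over both genotypes (0% of all genes, with 1252 of all genes and 1 of the 10 at an unadjusted p under 0.05). In WT hearts alone 0 were called (0% of all genes, 365 genes and 1 of the 10 unadjusted), and in Gαq hearts alone 0 were called (0.00615% of all genes, 1240 genes and 1 of the 10 unadjusted). The interaction called 0 of the 10 (0% of all genes, 313 genes and 1 of the 10 unadjusted). DESeq2 and the other tools tried also called 0 of the 10 in these 4 contrasts. Except for Rcan1, Nfatc2 and Mef2c, the diet intervals over both genotypes reached no farther from 0 on the log2 scale than the 0.27 of Nfatc4. Mef2c was at −0.21 ± 0.10 (adjusted p = 0.65).

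**Figure D4:**
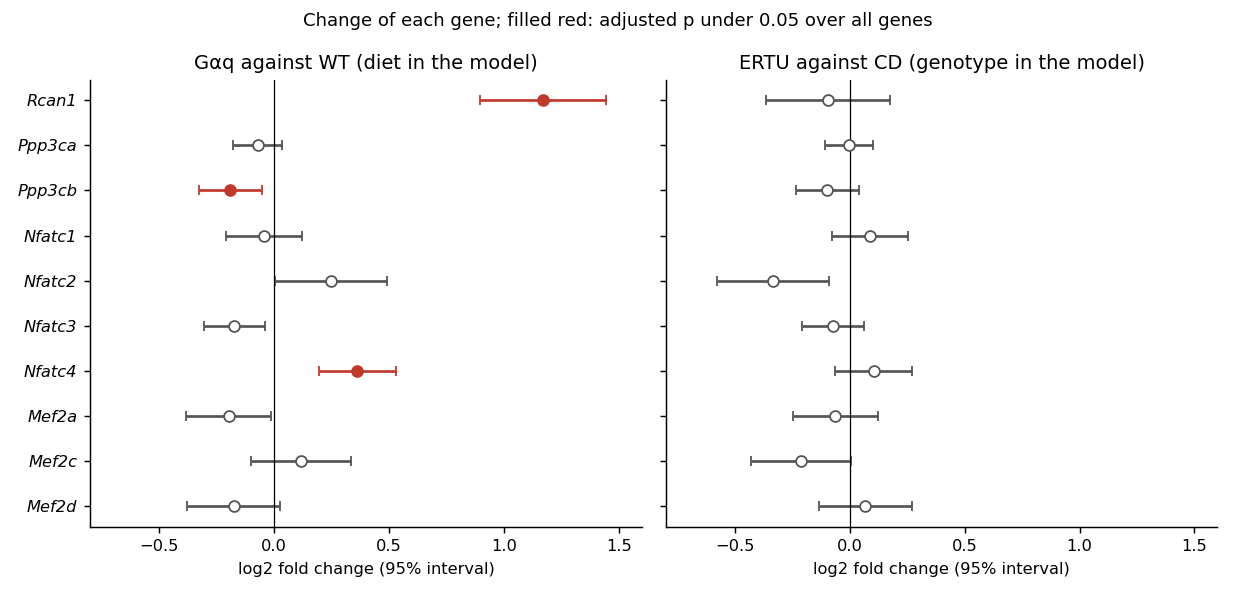
Log2 fold change of each gene with its 95% interval, for genotype on the left and diet on the right, with filled red points where the adjusted p over all genes is under 0.05. Rcan1 (1.17), Nfatc4 (0.36) and Ppp3cb (−0.19) are filled for genotype, and no gene is filled for diet.

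The wider pathway was read from 5 lists of 77 genes, of which 73 were tested. By genotype 20 were called, 10 higher and 10 lower, which is 27.4% against 19.6% of all genes. Of these, 8 were in the list of hypertrophy and target genes, where 6 of 12 were higher and 2 lower. In the other 4 lists 12 of 61 genes tested were called, which is 19.7% and near the share over all genes. Nppa, the atrial natriuretic peptide, differed by 5.03 ± 0.26 on the log2 scale (adjusted p = 4.52e-11), Nppb by 2.09 ± 0.18, Ankrd1, a stretch-responsive titin-binding protein, by 1.30 ± 0.12, and Myh7, the slow myosin heavy chain, by 1.72 ± 0.19. Acta1 (skeletal actin) and Xirp2, a MEF2 target, were also higher, and Ckm (muscle creatine kinase) and Adssl1 were lower. Edn1, Xirp1, Jun and Nr4a1 were not called.

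Among the other calcineurin genes, 15 of 16 were tested, with 1 higher and 1 lower (median log2 fold change 0.00). This is 13.3% called against 19.6% of all genes. Myoz1, which encodes a calcineurin-binding protein of the Z disc, was higher by 1.24 ± 0.27 on the log2 scale (adjusted p = 0.00237). Its level was low, with means of 0.5113 CPM in WT CD and 1.135 CPM in Gαq CD. On ERTU the means were 0.511 CPM in WT and 1.318 CPM in Gαq. Myoz2, a gene of the same family, was at 0.22 ± 0.10 and was not called (adjusted p = 0.1345). Rcan2, the relative of Rcan1, was lower at −0.29 ± 0.06 (adjusted p = 0.00272), so the sign was opposite to that of Rcan1. The regulatory subunit Ppp3r1 was at −0.09 ± 0.05 (adjusted p = 0.249). Ppp3r2 was not tested because of low counts.

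Among 16 NFAT kinases and partners, 1 was higher and 3 were lower, 25.0% called against 19.6% of all genes. The lower genes were kinases that can phosphorylate NFAT or prime it, Gsk3a at −0.24 ± 0.06 (adjusted p = 0.00456), Dyrk1b at −0.40 ± 0.10 (adjusted p = 0.00563) and Dyrk2 at −0.31 ± 0.10 (adjusted p = 0.0401). Junb, an AP-1 partner, was higher by 0.40 ± 0.13 (adjusted p = 0.0341). The Dyrk2 call was lost with no low-count filter. The Junb call was lost in 8 and the Dyrk2 call in 10 of the 18 fits without 1 library, with adjusted p up to 0.0734 and 0.089. For Junb these left out WT CD 1, WT CD 2, Gαq CD 10, WT ERTU 11, WT ERTU 13, WT ERTU 15, Gαq ERTU 17 or Gαq ERTU 20. Dyrk2 kept its call without WT CD 2, WT CD 5, Gαq CD 6, Gαq CD 7, Gαq CD 9, WT ERTU 13, WT ERTU 14 or Gαq ERTU 17.

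Among 18 MEF2 regulators, 0 were higher and 3 were lower, 16.7% called and so below the share over all genes. Hdac4, a deacetylase that represses MEF2, was at −0.55 ± 0.13 (adjusted p = 0.00523). Camk2b, a calcium and calmodulin kinase, was at −0.40 ± 0.10 (adjusted p = 0.008), and Sik1, a kinase of class IIa deacetylases, at −0.47 ± 0.13 (adjusted p = 0.0163). Among 15 genes of calcium entry and release, 12 were tested, with 2 higher and 1 lower, 25.0% called against 19.6% of all genes. Orai2, a store-operated channel subunit, was higher by 0.58 ± 0.14 (adjusted p = 0.0044) and Trpc1 by 0.24 ± 0.07 (adjusted p = 0.0169), while Itpr2, an inositol trisphosphate receptor, was lower at −0.42 ± 0.10 (adjusted p = 0.00327). Trpc4, Trpc5 and Trpc6 were not tested because of low counts.

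Diet called 0 of the 73 list genes over both genotypes, with 8 at an unadjusted p under 0.05, against 1252 of all 16270 genes tested. In Gαq hearts ERTU called 0, with 9 at an unadjusted p under 0.05, against 1240 of all genes. In WT hearts and for the interaction it called 0, with 0 at an unadjusted p under 0.05, against 365 and 313 of all genes. Of the targets named here, Nppb differed by −0.08 ± 0.23 between diets in Gαq hearts, Nppa by 0.22 ± 0.31, Ankrd1 by −0.35 ± 0.18 and Myh7 by 0.29 ± 0.25, each with an interval that spans 0. Over both genotypes the diet difference was −0.32 ± 0.12 for Ankrd1 (95% interval −0.57 to −0.07, unadjusted p = 0.0159) and −0.45 ± 0.18 for Xirp2 (95% interval −0.82 to −0.09, unadjusted p = 0.0178), each with an adjusted p of 0.639. In Gαq hearts Xirp2 differed by −0.62 ± 0.25 (95% interval −1.14 to −0.10, adjusted p = 0.653).

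**Figure D5:**
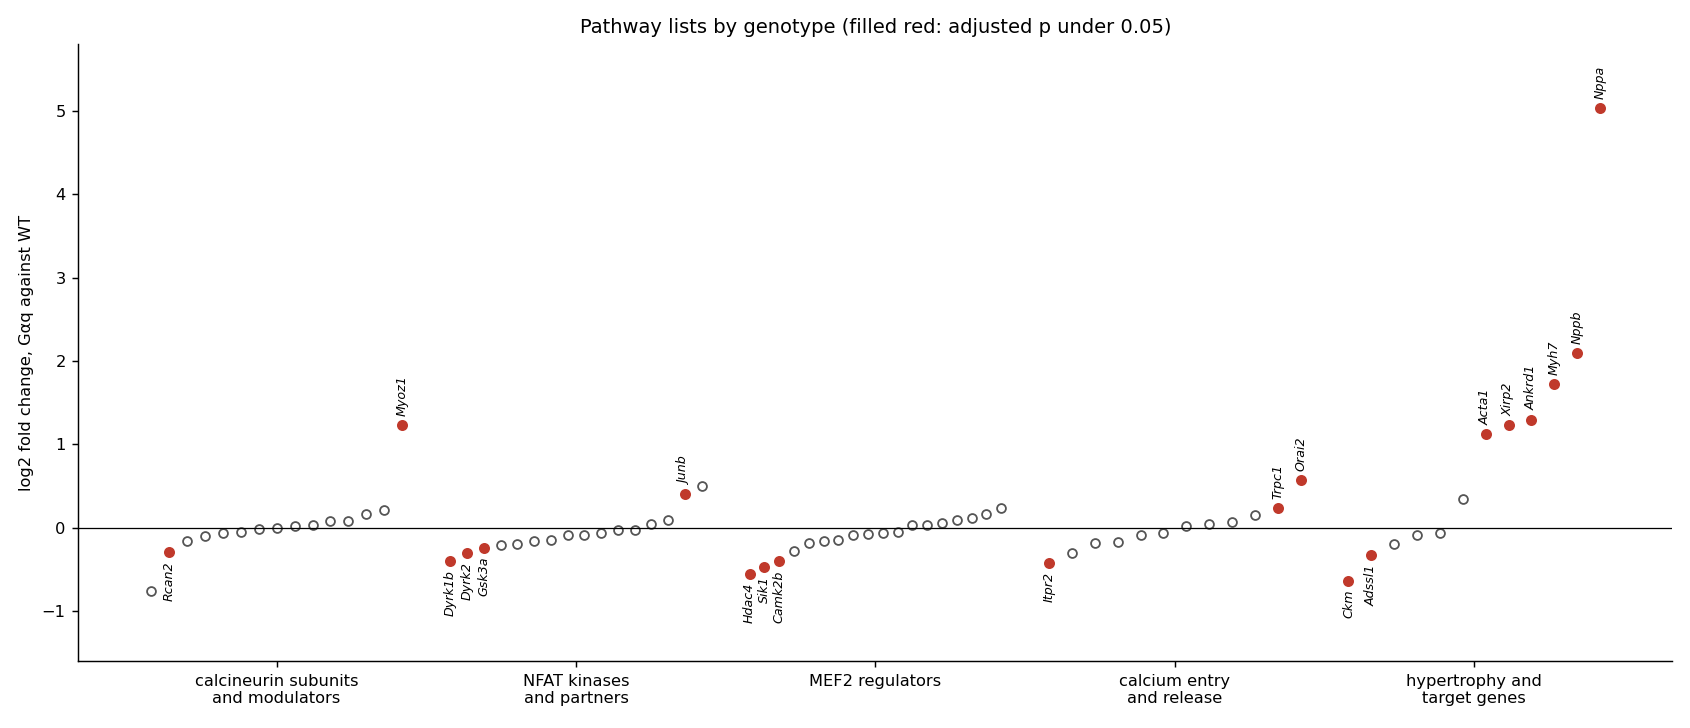
Log2 fold change of each list gene by genotype, sorted within its list, with filled and named points where the adjusted p is under 0.05. Called genes lie on both sides of 0 in 4 lists, the MEF2 regulators have 3 called genes, all lower, and Nppa at 5.03 is far above the rest.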

How the data were processed

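Per the labels and the study's methods, left ventricle RNA was poly(A)-selected and sequenced as paired-end reads, with 4 to 5 hearts in each of 4 groups. The authors aligned reads to mm10 with STAR 2.6.0c and made raw read-pair counts per Ensembl gene with featureCounts (Subread 1.6.2), keeping uniquely aligned pairs on the same strand. They also deposited log2 values from the variance-stabilizing transformation of DESeq2, which were looked at but not used in any test. Table columns carry the group but numbers of their own, so libraries are named by those.

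Of 55450 gene IDs, 55190 matched GENCODE M21. Counts were tested with edgeR 4.0.16 (R 4.3.3): filterByExpr on the 4 groups left 16270 genes (the genes removed held 0.0906% of counts), TMM scaling, and quasi-likelihood F tests with Benjamini-Hochberg adjustment and a threshold of 0.05. Genotype and diet came from a model with both factors, and the other 5 of 7 comparisons from a model with 1 mean per group. CPM uses TMM-scaled library sizes, and log2 CPM a prior count of 2. The standard error is the log2 fold change over the square root of F. Ratios were compared by exact permutation within strata. Script code was tested on simulated data.

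The labels describe hearts, so libraries were treated as animals, and p-values measure the spread between them. The genes and lists were chosen with earlier results of these data known. The text names the 10 genes, Gnaq, up to 4 called genes per list with the smallest adjusted p, and the 3 genes most like each called gene (mean log2 CPM of at least 1). Ppp3r1, Acta1, Xirp2, Ckm, Adssl1 and the genes listed as not called or not tested were added after values were seen, as were the relation to Gnaq and the alternative without the libraries highest in atrial markers. The alternatives were DESeq2 1.42.0 and its size factors, no filter, a CPM of at least 1, voom with quality weights (limma 3.58.1), only the groups compared, a 4-group model, and each library left out in turn. The depth was 15383566 to 20908363 counts per library. The smallest count of a gene of the set was 163 (Nfatc4 in WT ERTU 15). Promoter windows and starts came from RefSeq.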

Additional observations from a re-analysis of the deposited data

Results flagged for a closer look

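In 4 of 40 sets of values (a gene in a group) 1 library stood far from the rest by Dixon's criterion, where chance gives about 2. Ppp3cb was high in WT CD 4, at 95.2 CPM against 86.9 to 87.3 CPM in the others (gap over range 0.955), and in Gαq ERTU 17, at 82.1 CPM against 68.8 to 70.95 CPM (0.841). Without Gαq ERTU 17 the genotype call for Ppp3cb was kept, and without WT CD 4 it was lost. Ppp3ca was low in WT ERTU 15, at 75.3 CPM against 78.8 to 79.6 CPM (0.796), a range of a few CPM. Nfatc2 was high in WT CD 2, at 24.6 CPM against 15.98 to 17.4 CPM (0.839).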

How the results depend on the processing

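Rcan1 kept its direction and stayed past the threshold by genotype, on CD and on ERTU in all 25 alternatives, with log2 differences of 1.09 to 1.26, 1.41 to 1.58 and 0.75 to 0.99. Nfatc4 by genotype did so too, at 0.33 to 0.41 (adjusted p from 0.000318 to 0.00711). Ppp3cb by genotype lost its call in 17 of 25 alternatives, with adjusted p from 0.00945 to 0.128. The ratio of Mef2a to Mef2c by genotype passed in 21 of 21 (adjusted permutation p from 0.00181 to 0.0327). On CD, 2 of the 10 genes were called with voom in place of 1, and 1 to 2 in the fits without 1 library (2 without WT CD 5). On ERTU, 1 was called with no filter and 1 with only the groups compared, in place of 2, and 1 to 2 in the fits without 1 library. The cause was not tested. Without the 4 libraries highest in atrial markers, an alternative chosen after the data were seen, Rcan1 differed by 1.09 on the log2 scale by genotype (adjusted p = 8.46e-05), Nfatc4 by 0.41 (adjusted p = 0.00263) and Ppp3cb by −0.20 (adjusted p = 0.0813), and 20 list genes were called. No called result reversed. Small differences that were not called could change sign, such as Nfatc1 by genotype (−0.09 to 0.01) and on CD (−0.10 to 0.09). With no filter Trpc1 (adjusted p = 0.0508) and Dyrk2 lost their calls by genotype.

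No paired analysis was possible because the table columns carry numbers that run across the series and are not shared between groups. Counts are per gene, so the Rcan1 transcripts were not separated. Transcript levels do not measure calcineurin activity or NFAT location. With 4 to 5 libraries a group, changes of the size of the Ppp3cb difference lie at the limit of these tests.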
